A study of Mus musculus with 8 samples.

Results

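Corticosteroids reach the brain from the blood, and what a cell makes of them depends on 3 genes measured here: Nr3c1, which encodes the glucocorticoid receptor (GR), Nr3c2, which encodes the mineralocorticoid receptor (MR), and Hsd11b1, which encodes 11β-hydroxysteroid dehydrogenase type 1. They were chosen by name as the receptors of corticosterone and the enzyme that renews it inside cells, and are 3 of the 26711 features of the series. Their levels are given as CPM, the UMIs (counted RNA molecules) of a gene per 1000000 UMIs summed over all nuclei of a cell type in a library. GR and MR are ligand-activated transcription factors of the same nuclear receptor subfamily. MR binds corticosterone with the higher affinity and is largely occupied at resting hormone levels, whereas GR is filled as the hormone rises with the time of day or with stress. Hsd11b1 acts in intact cells mainly as a reductase that turns the inactive 11-keto steroid back into corticosterone, so that a cell that carries it can raise its own supply of ligand.

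The libraries were single-nucleus RNA-seq libraries from mice at postnatal day 21, made from the microdissected primary visual cortex (V1). Every animal, controls included, was GRfl/fl, that is, it carried loxP-flanked Nr3c1, and was injected at birth with an AAV2/5 virus under GfaABC1D, a promoter active in astrocytes. In GR-KO animals the promoter drove Cre, followed by a T2A peptide and membrane-bound EGFP-CAAX, with the elements 4x6T and WPRE at the end. In GR-Con animals ΔCre, a truncated form that does not recombine, took the place of Cre in an otherwise like vector. Animals were kept on a normal light cycle (NR) or in the dark until collection (DR), which with the 2 vectors gave 4 groups of 1 male and 1 female library each (n = 2 per group). The nuclei had been sorted as positive for the DNA dye DRAQ5 and, by the methods of the study, negative for GFP. Nuclei with a GFP signal at the sort were thus not collected. Astrocytes with an EGFP UMI were still among those kept, from 126 in NR GR-Con to 202 in DR GR-Con. How many astrocytes with the vector this left out cannot be read from these data. The study reports that the astrocytes kept showed many of the GR-dependent genes of its bulk RNA-seq.

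The libraries held 9517 to 15161 nuclei and 168632129 to 288774016 UMIs each, 102330 nuclei in all, in 20 cell types as the authors named them. Of 60 marker genes, 48 were highest in the type that they mark. The exceptions included all 3 markers of L6IT, which had their highest level in other types, so that the label of this type was not borne out by its list. Microglia numbered 2 to 4 nuclei in the NR GR-Con male, the NR GR-KO male and the DR GR-Con female, against 573 to 948 in the other 5 libraries. A further 1220 barcode sequences occurred in more than 1 library and accounted for 2452 nuclei (2.40%).

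Nr3c1 is at chromosome 18, 39410545 to 39519421, on the minus strand of GRCm38 (ENSMUSG00000024431.15, GENCODE vM21). It is the gene that Cre was meant to inactivate, so its level in astrocytes was examined first. In NR GR-Con it stood at 231 CPM in the male and 221 CPM in the female. In NR GR-KO it stood at 284 and 268 CPM. In DR GR-Con the values were 263 and 207 CPM, and in DR GR-KO 274 and 275 CPM. The GR-KO libraries were thus not lower than their controls, and each was above every GR-Con library. Over all 8 libraries the log2 fold change of GR-KO against GR-Con was 0.23 ± 0.12 (SE), which did not pass the test (adjusted p = 0.356, edgeR likelihood ratio test adjusted over 14402 genes).

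A library made from the 3′ end of transcripts does not show whether an internal exon has been cut out, so these counts are no check of the deletion. The vector itself matched the labels. Over all nuclei of a library, Cre had no UMI in the 4 GR-Con libraries and 190 to 1054 UMIs in the GR-KO libraries. The 1054 were in the NR GR-KO male, where 68 of 924 astrocytes held a Cre UMI. Cre UMIs outside astrocytes were not split by cell type here. Astrocytes with at least 1 EGFP UMI were few, 186 nuclei in NR GR-KO, 126 in NR GR-Con, 174 in DR GR-KO and 202 in DR GR-Con. In these, pooled over both libraries, Nr3c1 was at 334 CPM in NR GR-KO and 239 CPM in NR GR-Con, against 268 and 226 CPM in the astrocytes without an EGFP UMI. In DR GR-KO the astrocytes with and without an EGFP UMI were close, at 279 and 274 CPM, as they were in DR GR-Con, at 247 and 238 CPM.

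Nr3c1 UMIs were counted in every cell type, at levels that spanned 5.41-fold, the low end resting on 40 UMIs in 35 nuclei. How much of a level is free RNA was not tested: the 5 pan-neuronal markers summed to 1062 to 2269 CPM in oligodendrocytes and 1278 to 2903 CPM in microglia. Microglia had 347 ± 26.4 CPM (SD, n = 5 libraries), followed by endothelial cells (Endo, 299 ± 43.1, n = 7), vascular leptomeningeal cells (VLMC, 257 ± 18.3, n = 7) and astrocytes (253 ± 28.8, n = 8). Among excitatory neurons the level ran from 230 ± 24.2 CPM in corticothalamic L6CT neurons to 136 ± 11.4 CPM in intratelencephalic L5IT neurons, with L2/3 at 177 ± 12.1 and L4 at 163 ± 7.63. Inhibitory neurons were lowest, from Vip cells at 123 ± 18.8 CPM and Sst cells at 121 ± 16.5 to Pvalb cells at 86.5 ± 5.36 and chandelier cells (ChC) at 64.2 ± 30.1 (n = 3). Oligodendrocytes (158 ± 9.69 CPM) and their precursors (OPC, 174 ± 15.6) lay within the range of the excitatory types.

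The order of Nr3c1 was one of small steps, and it depended on the scale. Steps between neighbours were tested within libraries by an exact sign-flip permutation test, adjusted over the 57 steps of the 3 genes. The order was taken from the same libraries, so the choice of pairs and largely their direction were set by the values tested. The p-values of single steps are therefore descriptions and no support for the order. With 8 libraries the exact test cannot go below p = 0.00781, so a single step cannot pass after adjustment, and that 0 of the 19 steps of Nr3c1 passed does not show that neighbours are alike. The clearest were oligodendrocytes above L5IT, by 0.22 ± 0.17 on the log2 scale in 7 of 8 libraries (p = 0.0156 before adjustment, exact test), and Lamp5 above Pvalb, by 0.26 ± 0.19 in 7 of 8 (0.0234). Microglia, at the top in CPM, were last when UMIs were counted per nucleus, and L5PT, the large neurons that project out of the cortex, were then first. With TMM-scaled CPM, L6CT came first. A nucleus of microglia held a median of 2922 UMIs and one of L6CT 19320, so the share of RNA that is Nr3c1 and the number of Nr3c1 molecules in a nucleus rank these cells differently.

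Nr3c2 is at chromosome 8, 76899442 to 77245012, on the plus strand (ENSMUSG00000031618.13). It was far more uneven than Nr3c1, with a 58.9-fold span from Vip interneurons to near-projecting L5NP neurons. Vip cells had 780 ± 103 CPM (n = 8) and were the highest type in 8 of 8 libraries. Their lowest library was the NR GR-KO female (577 CPM) and their highest the DR GR-Con male (933 CPM). On all 4 scales (CPM, UMIs per nucleus, TMM-scaled CPM and share of nuclei) Vip cells stayed first and L5NP cells last.

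Below Vip, the MR gene was high in cells of different lineages. VLMC stood at 466 ± 162 CPM (n = 7), astrocytes at 421 ± 74.5 and Lamp5 interneurons at 389 ± 29.6 (n = 8 each). L5PT neurons had 317 ± 55.8 CPM, whereas 4 other deep-layer types were low: L6CT had 46.3 ± 9.80, L6b 36.1 ± 10.4, L5IT 13.8 ± 7.15 and L5NP 13.3 ± 3.47 CPM. Interneurons other than Vip and Lamp5 were lower, with Pvalb at 177 ± 12.4 and Sst at 105 ± 15.8 CPM. The remaining types were Endo (204 ± 41.6), ChC (191 ± 50.2), L2/3 (151 ± 36.9), OPC (150 ± 12.8), smooth muscle cells with pericytes (SMC-Peri, 138 ± 52.9), L6IT (117 ± 35.6), microglia (89.6 ± 10.9), oligodendrocytes (52.4 ± 7.34) and L4 (38.8 ± 11.5).

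Here too 0 of 19 neighbouring pairs passed the exact sign-flip test after adjustment, which a single pair cannot do. These pairs were likewise set by the order of the values tested, so their p-values are descriptions. Vip was above VLMC by 0.81 ± 0.50 on the log2 scale and L5PT above Endo by 0.62 ± 0.30, each in 7 of 7 libraries, at p = 0.0156 before adjustment, the smallest the exact test can give there, and 0.178 after it. L6b was above L5IT by 1.52 ± 0.89 in 8 of 8 libraries, again at the smallest p of the exact test (0.00781, or 0.178 adjusted). To set aside differences in depth, each nucleus was thinned to 2000 UMIs, which left out the 692 nuclei with fewer (513 of them among the microglia counted here and 56 among astrocytes). Then 68.7 ± 3.25% of Vip nuclei and 2.14 ± 0.57% of L5NP nuclei held an Nr3c2 UMI, against 97.7% and 13.0% before thinning at median depths of 14570 and 17460 UMIs. The share in L5NP was the lowest of the 20 types, and how much of it was free RNA was not tested.

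**Figure D1:**
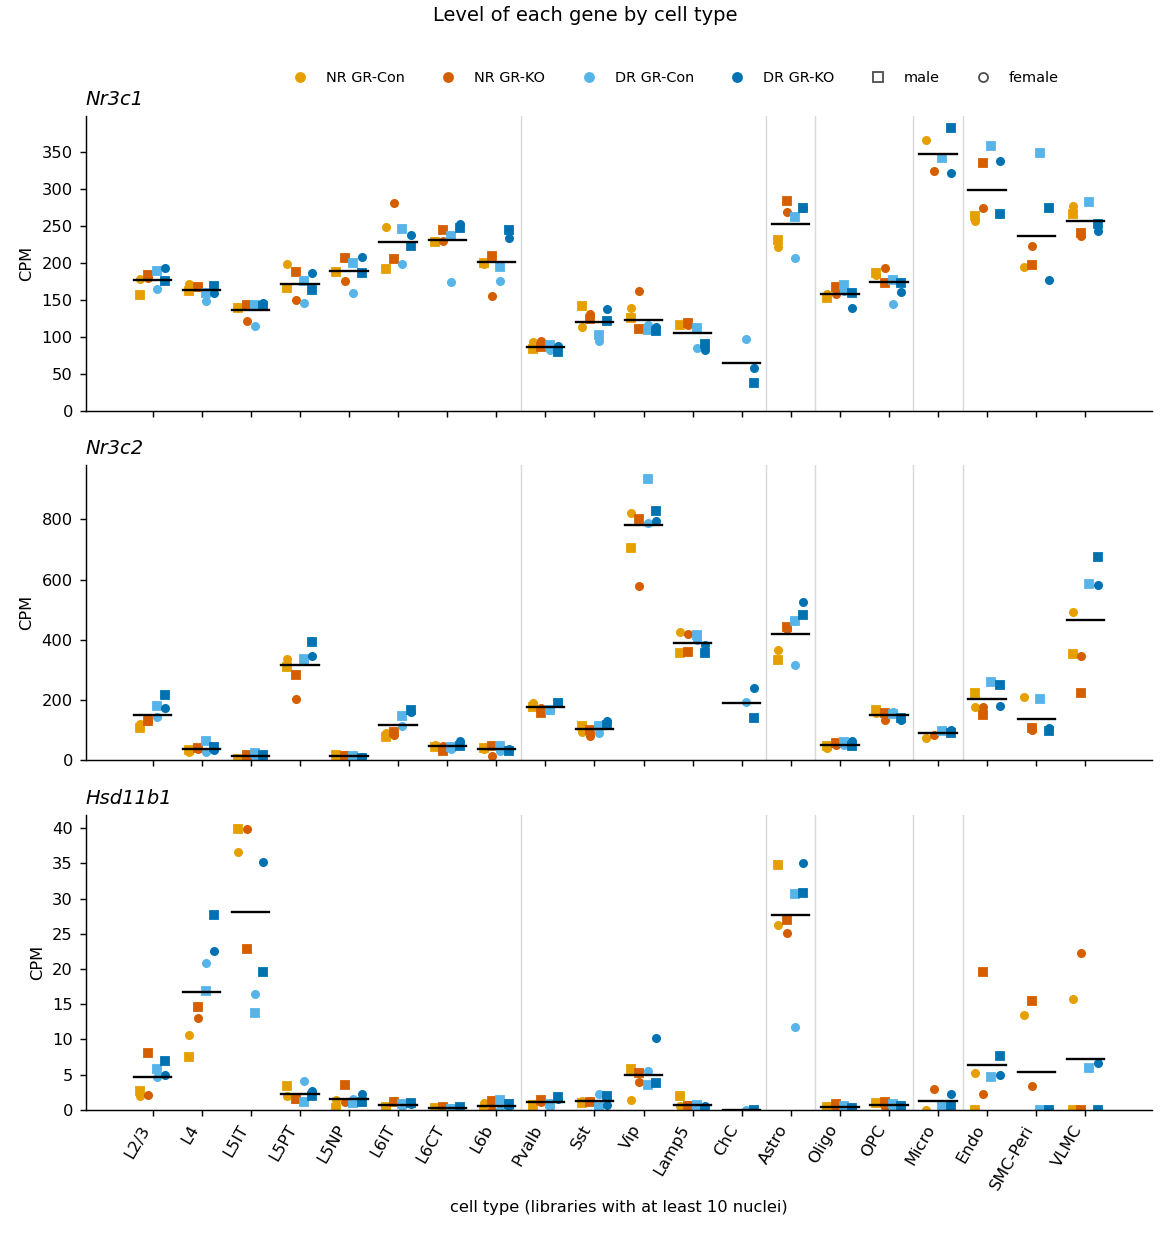
CPM of Nr3c1, Nr3c2 and Hsd11b1 in each of the 20 cell types, one panel per gene on a linear axis from 0, with a point for each library that had at least 10 nuclei of the type (colour for the group, squares for males, circles for females) and a bar for the mean. Nr3c1 spans 5.41-fold, Nr3c2 58.9-fold with Vip highest in 8 of 8 libraries, and Hsd11b1 is high in L5IT, astrocytes and L4.

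Hsd11b1 is at chromosome 1, 193221634 to 193264075, on the minus strand (ENSMUSG00000016194.14). The enzyme's transcript was concentrated in 3 types: L5IT neurons with 28.0 ± 11.0 CPM, astrocytes with 27.7 ± 7.43 and L4 neurons with 16.7 ± 6.64 (n = 8 each). The same 3 types led on all 4 scales. L5IT was highest in 4 of 8 libraries, and its step to astrocytes was within the spread. The next types were VLMC (7.23 ± 8.73 CPM), Endo (6.32 ± 6.30), SMC-Peri (5.39 ± 7.17), Vip (4.94 ± 2.57) and L2/3 (4.65 ± 2.26). The vascular values rest on 8 to 24 UMIs per type.

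In the remaining types Hsd11b1 was at or under 2.31 CPM. L6CT had 0.296 ± 0.0859 CPM from 71 UMIs in 12197 nuclei, and ChC held 1 UMI in 70 nuclei over all 8 libraries. After thinning, 5.28 ± 1.92% of L5IT nuclei, 5.10 ± 1.34% of astrocytes and 2.49 ± 1.03% of L4 nuclei had an Hsd11b1 UMI, against 0.0612 ± 0.0164% of L6CT nuclei. Without thinning the shares were 30.9%, 14.3%, 14.5% and 0.567%, at median depths of 24510, 6908, 20190 and 19320 UMIs. L4 and L6CT, which were sequenced to a similar depth, stood far apart in this gene.

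Across cell types the 3 genes ran largely apart. Over the 20 types, Pearson's r of log2 levels was -0.08 between Nr3c1 and Nr3c2, 0.16 between Nr3c1 and Hsd11b1 and 0.03 between Nr3c2 and Hsd11b1. These are descriptions over types that share libraries. Among 13562 features, the one most like Hsd11b1 was Rorb (r = 0.88), the nuclear receptor gene used as a marker of L4, which was itself highest in astrocytes, followed by Lhx2, Ccdc80, Raver2 and A330076C08Rik (r = 0.80 to 0.77). For Nr3c2 the 5 nearest were Lpp, Bcl6, Gm10649, Dus4l and Zfp608 (r = 0.80 to 0.72). For Nr3c1 they were Mtg2, Ldha, Tmem245, Psmd13 and Pank2 (r = 0.92 to 0.88).

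Because both receptors bind the same steroid, they were compared as log2 of the ratio of Nr3c2 to Nr3c1 UMIs, which can be set against the same ratio in another class although the 2 genes differ in length. For the same reason a ratio of 0 on this scale does not mean equal amounts of the 2 receptors. The ratio was highest in inhibitory neurons, at 1.51 ± 0.18 (n = 8), and astrocytes followed at 0.72 ± 0.13. Vascular cells were at 0.11 ± 0.45 (n = 7). Lower still were excitatory neurons at -0.89 ± 0.31, the oligodendrocyte lineage at -1.05 ± 0.15 (n = 8 each) and microglia at -1.96 ± 0.25 (n = 5).

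The ratio differed between classes in 14 of 15 pairs (exact two-sided sign-flip permutation test over 8 libraries, adjusted over the 15 pairs). The test used all 8 libraries, also those with 2 to 4 microglial nuclei or 9 vascular nuclei, which the class means above leave out. Inhibitory neurons were above excitatory neurons in 8 of 8 libraries, by 2.40 ± 0.17 (adjusted p = 0.0130). Astrocytes were below inhibitory neurons by 0.79 ± 0.17 and above the oligodendrocyte lineage by 1.77 ± 0.18, each in 8 of 8 libraries (exact test, adjusted p = 0.0130). The exception was excitatory neurons against the oligodendrocyte lineage, at 0.16 ± 0.28 with 5 of 8 libraries higher (exact test, adjusted p = 0.164). That pair depended on how types were weighted. With the mean of the cell types in place of the sum it was -0.94 ± 0.16, lower in 8 of 8 libraries (exact test, adjusted p = 0.0195). Excitatory neurons against microglia were then at 0.12 ± 0.24, higher in 3 of 5. With the sums, and only libraries with at least 10 nuclei of both classes, 9 pairs passed. The microglial pairs then rest on 5 libraries, in which the exact test cannot go below p = 0.0625, although the direction was the same in 5 of 5.

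Within a class the ratio was not uniform. Among inhibitory types it ran from -0.20 ± 0.26 in Sst through 1.03 ± 0.13 in Pvalb and 1.91 ± 0.23 in Lamp5 to 2.67 ± 0.39 in Vip. Among excitatory types it ran from -3.86 ± 0.41 in L5NP and -3.49 ± 0.85 in L5IT to 0.87 ± 0.28 in L5PT, the highest of the excitatory types. L2/3 was at -0.27 ± 0.30 and L6IT at -1.02 ± 0.46. The class value of excitatory neurons also separated the rearing conditions: it was -1.10, -1.13, -1.09 and -1.30 in the NR libraries and -0.65, -0.74, -0.37 and -0.71 in the DR libraries, without overlap. The lowest, -1.30, was that of the NR GR-KO female, which held 59 nuclei of L5PT against 384 to 504 in the other libraries. This class value is a sum over types, and its parts are described by type.

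**Figure D2:**
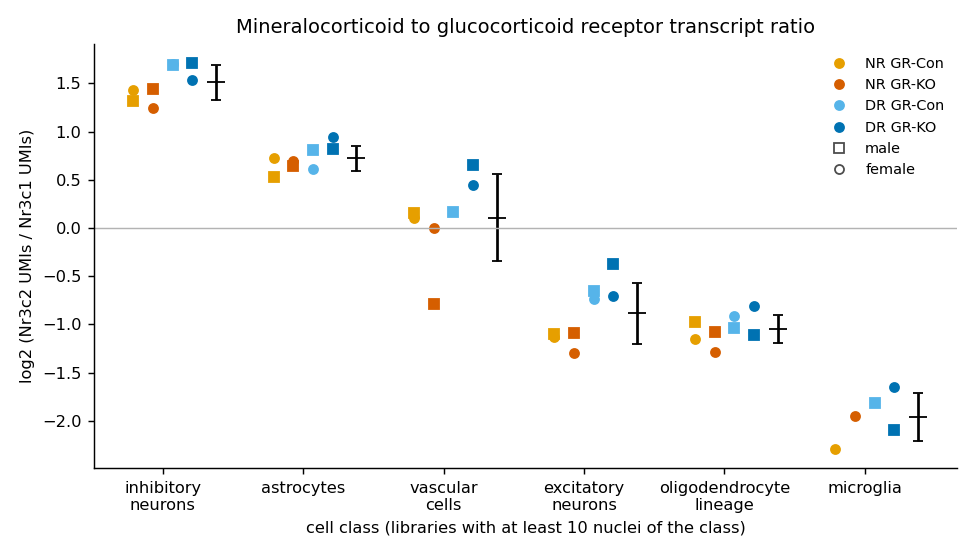
Log2 of the ratio of Nr3c2 to Nr3c1 UMIs in 6 cell classes, with 1 point per library that had at least 10 nuclei of the class and, beside the points, the mean with 1 SD. Inhibitory neurons (mean 1.51) and astrocytes (0.72) lie above 0, and excitatory neurons (-0.89), the oligodendrocyte lineage (-1.05) and microglia (-1.96) below it, with the DR libraries of excitatory neurons nearer to 0 than the NR libraries.

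The question of the comparisons between DR and NR was how visual experience changes gene expression in each V1 cell type. Over all 8 libraries, with genotype as a term, 3 of the 39 pairs of a member and a cell type changed between DR and NR, beside 5.4% of all 212019 pairs of a gene and a type that were tested. All 3 were higher in DR, and they were Nr3c2 in L2/3 and in L6IT and Hsd11b1 in L4. The edgeR quasi-likelihood test and DESeq2 also called 3 each. Within GR-Con, 4 of 36 pairs changed (background 2.25%), and within GR-KO 3 of 45 (background 3.66%). The quasi-likelihood test called 2 in each, and DESeq2 called 5 and 3. Here and in what follows, counts by these 2 tests or at an unadjusted p stand without the share of all pairs. Such counts are not read as a gain or loss of the members. The counts of the likelihood ratio test are small and, over all libraries and in GR-KO, not far above the share of all genes. They are given as values of single genes and not as a property of the members. Both genotypes enter the fit over all libraries, so these 3 fits are not independent of one another. With sex as a term the counts were 7 over all libraries (background 6.65%) and 5 in GR-KO (6.18%). The counts moved with single libraries, and each is given with the share of all pairs called in the same fit. The 3 over all libraries became 7 without the NR GR-KO male (5.61%), 5 without the DR GR-Con male (6.08%) and 5 without the DR GR-KO female (3.79%). The 4 in GR-Con became 7 without the DR GR-Con female (3.28%). The 3 in GR-KO became 10 without the NR GR-KO male (6.15%) and 1 without the DR GR-KO male (0.826%).

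Nr3c2 in L2/3 neurons stood at 107 and 120 CPM in NR GR-Con (male, then female, here and in what follows) and at 131 and 131 CPM in NR GR-KO. In DR it stood at 181 and 145 CPM in GR-Con and at 217 and 175 CPM in GR-KO. Every DR library was above every NR library. The log2 fold change of DR against NR over all libraries was 0.55 ± 0.12, that is 1.46-fold (edgeR adjusted p = 0.000288), and it passed in each of 14 alternatives, including each library left out. In L2/3 16.3% of genes passed this comparison. Some markers in the same nuclei separated by rearing too. Otof, an L2/3 marker, was at 29.3 to 45.4 CPM in NR and 70.5 to 103 CPM in DR. Cux2, another L2/3 marker, overlapped, at 306 to 419 CPM in NR and 298 to 442 CPM in DR. Stard8, the remaining L2/3 marker, is not given by library here. The L6CT markers summed to 22.3 to 28.8 CPM in NR and 12.4 to 17.3 CPM in DR. Those of Lamp5 separated as well, at 71.5 to 88.1 and 39.9 to 70.9 CPM. The lists named, here and in other types, were picked from 21 marker lists looked at. The part of these markers in the result was not tested.

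The rise of Nr3c2 in L2/3 passed within GR-KO at 0.63 ± 0.18 (edgeR adjusted p = 0.00882). There it was lost with the quasi-likelihood test (0.0585), without the NR GR-KO female (0.0804) and without the DR GR-KO male (0.382). Within GR-Con the value was 0.48 ± 0.19 (edgeR adjusted p = 0.113), which passed with DESeq2 (0.0396). It was 0.64 without the DR GR-Con female, which leaves 1 DR library. The difference between the genotypes in this effect was -0.14 ± 0.26 (GR-Con minus GR-KO, adjusted p = 0.998).

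Nr3c2 in L6IT neurons was at 76.1 and 91.1 CPM in NR GR-Con and at 94.9 and 85.3 in NR GR-KO. Under DR it was at 146 and 115 CPM in GR-Con and at 166 and 159 in GR-KO. The conditions again did not overlap, and the DR GR-KO libraries were the highest. The change was 0.75 ± 0.13 over all libraries, 1.68-fold (edgeR adjusted p = 1.17e-06), and 0.87 ± 0.13 within GR-KO (7.96e-08). Both passed in every alternative run. Within GR-Con it was 0.63 ± 0.21 (edgeR adjusted p = 0.149), or 0.83 without the DR GR-Con female, which leaves 1 DR library. The background in L6IT was 6.8% over all libraries. In the same nuclei Penk, an L6IT marker, was at 2.32 to 4.80 CPM in NR and 0.15 to 0.82 CPM in DR. The other L6IT markers, Osr1 and Oprk1, overlapped. The part of these in the result was not tested.

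L5IT neurons, in which MR is scarce, showed the largest fold in 1 genotype. Nr3c2 was at 5.65 and 4.77 CPM in NR GR-Con, from 48 and 40 UMIs, and at 25.8 and 13.5 CPM in DR GR-Con. It was at 18.4 and 8.77 CPM in NR GR-KO and at 17.7 and 15.9 CPM in DR GR-KO. The NR GR-Con pair was thus the low one, and the GR-KO libraries of both conditions overlapped. Within GR-Con the rise was 1.92 ± 0.35, 3.78-fold (edgeR adjusted p = 3.99e-06, all 10 alternatives passing), and within GR-KO the value was 0.31 ± 0.35 (0.886). In the same nuclei the L6CT markers summed to 30.3 and 37.8 CPM in NR GR-Con against 46.4 and 90.6 CPM in DR GR-Con, and the L4 markers, mostly Rorb, to 788 and 896 against 316 and 430 CPM. The part of these in the result was not tested.

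The difference between the genotypes in the L5IT response of Nr3c2 was 1.61 ± 0.56 and did not pass (edgeR adjusted p = 0.193). It passed with sex as a term (1.48, 0.00736), without the NR GR-KO female (2.01, 0.00132) and without the DR GR-Con female (2.03, 0.0102). Over all libraries the DR effect was 1.10 ± 0.38 (adjusted p = 0.0704), and it passed with sex as a term (1.10, 0.0114), without the NR GR-KO male (1.50, 8.78e-06) or without the DR GR-KO female (1.32, 0.0420).

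**Figure D3:**
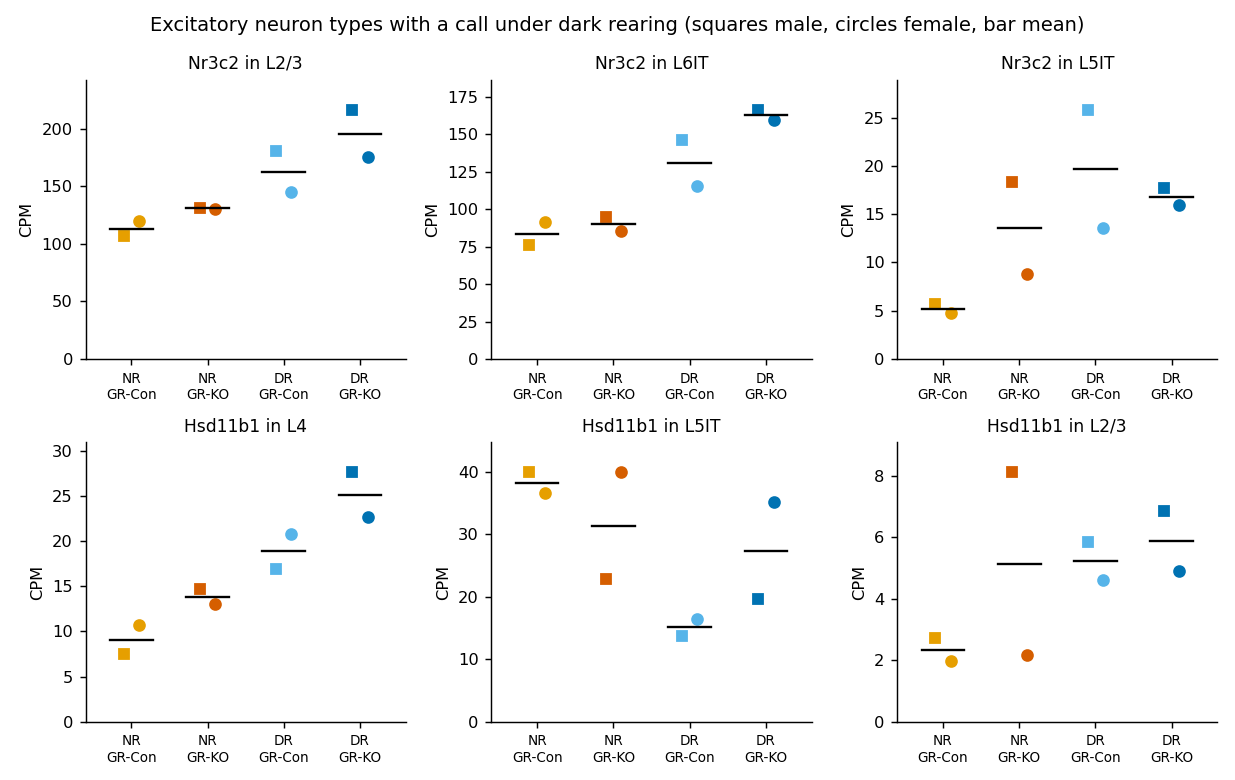
CPM of the members called between DR and NR, on linear axes from 0, with 1 point per library (squares for males, circles for females) and a bar for the mean of each group. Nr3c2 in L2/3 and L6IT is higher in every DR library than in every NR library. Hsd11b1 in L4 is higher in every DR library than in every NR library, and in L5IT the GR-Con libraries separate (36.6 and 39.9 CPM in NR against 13.7 and 16.5 CPM in DR) while those of GR-KO overlap.

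Hsd11b1 rose with dark rearing in L4, the layer that receives most visual input from the thalamus. It was at 7.51 and 10.7 CPM in NR GR-Con and at 14.6 and 13.0 CPM in NR GR-KO. In DR it was at 16.9 and 20.8 CPM in GR-Con and at 27.6 and 22.6 CPM in GR-KO. Every DR library was above every NR library. The change was 0.99 ± 0.14 over all libraries, 1.99-fold (edgeR adjusted p = 1.55e-09), and it passed in each of 14 alternatives. In L4 9.91% of genes passed this comparison.

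By genotype, Hsd11b1 in L4 rose by 1.07 ± 0.23 in GR-Con (edgeR adjusted p = 0.000292) and by 0.92 ± 0.17 in GR-KO (1.10e-05). The first was lost with the quasi-likelihood test (0.137) and without the NR GR-Con male (0.0772), the second without the DR GR-KO male (0.0780). The difference between the genotypes was 0.15 ± 0.29 (adjusted p = 1.00). Beside this, the summed level of the L4 markers, mostly Rorb, in the nuclei named L4 was 1289 to 2036 CPM in NR and 1090 to 1412 CPM in DR; the part of this in the result was not tested.

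In L5IT, the neighbour of L4 with the highest level, Hsd11b1 went the other way in controls. NR GR-Con had 39.9 and 36.6 CPM and DR GR-Con had 13.7 and 16.5 CPM. NR GR-KO had 22.8 and 39.9 CPM and DR GR-KO had 19.6 and 35.2 CPM. The GR-Con libraries separated by condition, and those of GR-KO varied more between animals than between conditions. In both conditions the GR-KO male was below the GR-KO female. With a single animal of each sex per group, sex cannot be told apart from the animal. Within GR-Con the fall was -1.34 ± 0.16, to 0.395 of the NR level (edgeR adjusted p = 2.32e-14), and it passed in all 10 alternatives. In L5IT of GR-Con 6.14% of genes passed.

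Within GR-KO the Hsd11b1 value in L5IT was -0.19 ± 0.38 (edgeR adjusted p = 0.957). The difference between the genotypes was -1.16 ± 0.46 and did not pass (adjusted p = 0.334), except without the NR GR-KO female (-1.64, 0.00231) and with sex as a term (-1.18, 0.0280). Over all libraries the effect was -0.77 ± 0.30 (adjusted p = 0.116), and it passed with sex as a term (-0.78, 0.0498), without the NR GR-KO male (-1.03, 0.000192) or without the DR GR-KO female (-1.08, 0.000620). The L4 markers in nuclei named L5IT summed to 788 and 896 CPM in NR GR-Con and to 316 and 430 CPM in DR GR-Con. The L5IT markers, mostly Il1rapl2, were at 6532 and 7007 against 5464 and 5769 CPM. Deptor and Etv1, the other L5IT markers, overlapped between these conditions.

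Since L4 and L5IT moved in opposite directions and share Rorb, their nuclei were also pooled. Hsd11b1 in the pool was at 12.03 and 14.5 CPM in NR GR-Con, 16.7 and 16.5 in NR GR-KO, 16.2 and 19.9 in DR GR-Con and 26.0 and 24.5 in DR GR-KO. Within each genotype the DR libraries were above the NR libraries. L5IT made up 12.6 and 13.1% of the pooled nuclei in NR GR-Con and 19.0 and 17.0% in DR GR-Con, but 21.5 and 11.1% in NR GR-KO and 17.5 and 12.9% in DR GR-KO, where the conditions overlapped. A nucleus that was assigned to another type in the dark cannot be told apart from one whose expression changed.

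Hsd11b1 in L2/3 was low throughout, and its call did not hold among most nuclei of the type. It was at 2.71 and 1.96 CPM in NR GR-Con, 8.11 and 2.16 in NR GR-KO, 5.86 and 4.60 in DR GR-Con and 6.87 and 4.90 in DR GR-KO. Within GR-Con it rose by 1.11 ± 0.26 (edgeR adjusted p = 0.000913; background in L2/3 7.45%). The call was lost with the quasi-likelihood test (0.0756) and without the NR GR-Con female (0.189).

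The high libraries for Hsd11b1 in L2/3 were those in which nuclei named L2/3 carried Tshz2, a gene used here as a marker of L5NP. A Tshz2 UMI was not particular to L5NP. In L4 it was held by 21.6% (NR GR-KO male) to 40.4% (DR GR-Con female) of nuclei. The share of L2/3 nuclei with a Tshz2 UMI was 6.22 and 4.66% in NR GR-Con, 18.3 and 9.61% in NR GR-KO, 17.0 and 33.9% in DR GR-Con and 24.5 and 20.8% in DR GR-KO. The 3 L5NP markers together, mostly Tshz2, summed to 4.40 to 6.40 CPM in 3 of the NR libraries. They summed to 162 CPM in the NR GR-KO male and to 107 to 246 CPM in the 4 DR libraries. In the NR GR-KO male, Hsd11b1 was at 24.6 CPM in the L2/3 nuclei with Tshz2 and at 3.72 CPM in those without. The difference was smaller in the DR GR-Con female, which had the largest share, at 6.79 and 3.345 CPM. In the NR GR-Con male it went the other way, at 1.64 and 2.79 CPM, as in no other library. L5NP nuclei themselves held 1.51 ± 0.99 CPM of Hsd11b1, and L4 nuclei 16.7 ± 6.64 CPM. Which type the L2/3 nuclei with Tshz2 resemble was not tested.

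In L2/3 nuclei without a Tshz2 UMI, an alternative chosen after the data were seen, Hsd11b1 was at 2.79 and 1.92 CPM in NR GR-Con, 3.72 and 1.91 in NR GR-KO, 2.28 and 3.34 in DR GR-Con and 2.56 and 2.64 in DR GR-KO. The groups overlapped, and the change within GR-Con was 0.21 ± 0.31 (edgeR adjusted p = 0.865). Nr3c2 in the same nuclei kept its rise, at 0.60 ± 0.14 over all libraries (edgeR adjusted p = 0.000279). Hsd11b1 kept its rise in L4 nuclei without Tshz2, at 0.91 ± 0.13 (2.48e-09), and its fall in L5IT of GR-Con, at -1.28 ± 0.17 (3.02e-12).

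**Figure D4:**
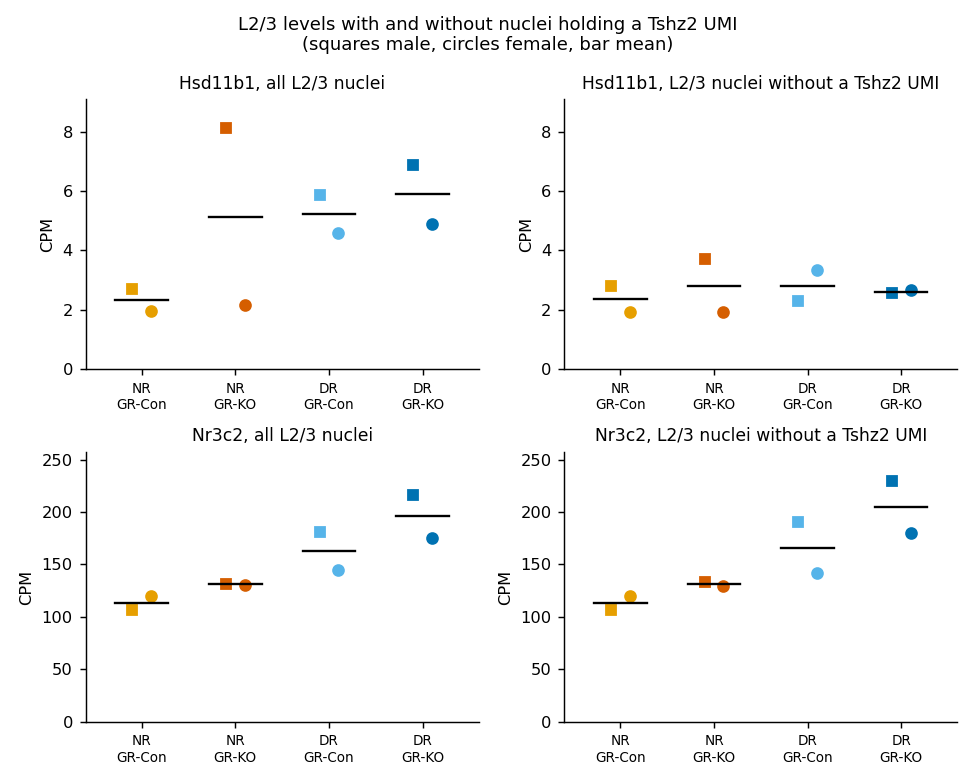
Hsd11b1 and Nr3c2 in L2/3 nuclei, in CPM per library, for all nuclei (left) and for nuclei without a Tshz2 UMI (right), with squares for males, circles for females and a bar for each group's mean. Without them Hsd11b1 lies between 1.91 and 3.72 CPM in all 8 libraries with no separation by rearing, and Nr3c2 remains higher in the 4 DR libraries (142 to 229 CPM) than in the 4 NR libraries (107 to 134 CPM).

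Nr3c1 itself was not called between DR and NR in any type by edgeR's likelihood ratio test, the quasi-likelihood test or DESeq2. This held in 15 types over all libraries (2 at an unadjusted p under 0.05), in 15 within GR-Con (1) and in 18 within GR-KO (1). Its log2 fold changes over all libraries ran from -0.28 to 0.13, with a median of -0.04. It passed when 1 library was left out in Lamp5 (-0.40 without the DR GR-Con male, edgeR adjusted p = 0.00912) and in Vip (-0.35 without the NR GR-KO male, 0.0202). Within GR-KO the Vip value without the NR GR-KO male was -0.51, with 1 NR library left in the fit.

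Loss of GR in astrocytes is the other question of the design, asked with GR-KO against GR-Con. In NR, 1 of 43 pairs of a member and a type changed (background 0.804%), in DR none of 39 (background 0.513%; 5 at an unadjusted p under 0.05) and over all libraries none of 39 (background 0.395%; 7 unadjusted). The quasi-likelihood test called none in the 3 comparisons and DESeq2 called 0, 0 and 1, again without the share of all pairs beside these counts. With sex as a term more pairs passed in each of the 3, with the counts in the closing section, where the share of all pairs is not given. The single call without that term was Hsd11b1 in L6IT. It was at 0.379 and 0.173 CPM in NR GR-Con, from 6 and 3 UMIs, and at 1.09 and 1.24 CPM in NR GR-KO. Its log2 fold change was 2.05 ± 0.51 (edgeR adjusted p = 0.0210), and it was lost with both other tests (0.998 and 1.00), without either NR GR-Con library (0.175 without the male, 1.00 without the female) and without the NR GR-KO female (0.0916).

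The pair nearest to a further call was Nr3c2 in L5IT, whose values per library are given above. In NR both GR-KO libraries were above both GR-Con libraries, by 1.40 ± 0.39, 2.63-fold (edgeR adjusted p = 0.0870). Rorb in the same nuclei was at 782 and 893 CPM in NR GR-Con and at 400 and 713 CPM in NR GR-KO, and its part in this was not tested. It passed with sex as a term (1.34, 0.000208), without the NR GR-KO female (1.80, 1.45e-12, with 1 GR-KO library left, so that the spread is that of the 2 controls) and among nuclei without a Tshz2 UMI (1.50, 0.0443). In DR the value was -0.22 ± 0.31 (adjusted p = 0.999).

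Next was Hsd11b1 in L4, also described above. Its log2 fold change with GR-KO over all libraries was 0.52 ± 0.14, 1.44-fold (edgeR adjusted p = 0.0943). Within NR and within DR both GR-KO libraries were above both GR-Con libraries. The oligodendrocyte markers in the same L4 nuclei separated too, at 45.9 to 63.9 CPM in GR-Con and 65.1 to 97.2 CPM in GR-KO. Their list was picked from 21 looked at, and its part in the Hsd11b1 result was not tested. It passed with DESeq2 (0.0290), with sex as a term (0.0423), among nuclei without a Tshz2 UMI (0.0417) and without the NR GR-Con female (0.0388) or the NR GR-KO female (0.0417).

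In astrocytes, the type at which the vector was aimed, Nr3c2 was at 333 and 367 CPM in NR GR-Con and at 443 and 436 CPM in NR GR-KO. In DR it was at 461 and 316 CPM in GR-Con and at 482 and 527 CPM in GR-KO. The genotypes separated in NR and in DR, but the DR GR-Con male lay above both NR GR-KO libraries. Over all libraries the difference was 0.33 ± 0.14 and did not pass (edgeR adjusted p = 0.245). It passed without the DR GR-Con male (0.44, 0.0386), and in NR with sex as a term (0.26, 0.0268). In DR alone it was 0.40 ± 0.26 (adjusted p = 1.00) and turned on 1 control: 0.73 without the DR GR-Con male (edgeR adjusted p = 2.52e-05) and 0.13 without the DR GR-Con female (0.827).

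Astrocytic Hsd11b1 was at 34.8 and 26.3 CPM in NR GR-Con and at 26.9 and 25.1 CPM in NR GR-KO. In DR it was at 30.7 and 11.7 CPM in GR-Con and at 30.8 and 35.1 CPM in GR-KO. The DR GR-Con female stood alone at the bottom. The difference between genotypes was 0.17 ± 0.29 over all libraries (edgeR adjusted p = 0.926). In DR it was 0.64 ± 0.45 (1.00), but 1.54 without the DR GR-Con male (4.97e-14), which leaves that female as the only control and the spread to the 2 GR-KO libraries.

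The libraries differed in depth. Over all nuclei the median was 22827.5 and 29223 UMIs in NR GR-KO, against 14861 to 20161 in the other libraries. Astrocyte libraries also differed in how much neuronal RNA they held. The 5 pan-neuronal markers summed to 1296 and 1344 CPM in NR GR-Con and 2328 and 2409 in NR GR-KO. They summed to 1661 and 1868 CPM in DR GR-Con and 1978 and 1774 in DR GR-KO. The 3 astrocyte markers, mostly Slc1a3, summed to 2519 to 3453 CPM. Of these, Aqp4 separated the genotypes, at 95.3 to 131 CPM in GR-Con and 174 to 192 CPM in GR-KO, whereas Slc1a3 and Gja1 overlapped. The part of these differences in the astrocyte values was not tested.

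The counts of member calls for genotype rested on single libraries. Within NR or DR, as in the rearing fits within GR-Con or GR-KO, leaving one out leaves its group with 1 library. The fit assumes that library to vary like the 2 of the other group. In NR they ran from 0 to 4 when a library was left out, the 4 being Hsd11b1 in L2/3 and L5IT and Nr3c2 in L5IT and L6CT without the NR GR-KO female (background 2.16%). In DR they ran from 0 to 7, the 7 without the DR GR-Con male (background 3.23%), which included Nr3c1 in astrocytes (0.46, edgeR adjusted p = 0.00534), L6CT (0.56, 0.0285) and Sst (0.50, 0.00356), all higher in GR-KO. With sex as a term Nr3c1 in Sst also passed in DR (0.42, 0.00911). Otherwise Nr3c1 was called in no genotype comparison by edgeR's likelihood ratio test on all libraries of the comparison, the quasi-likelihood test or DESeq2 (0 unadjusted in NR, 2 in DR and 1 over all libraries). For the interaction of genotype and rearing, none of 40 pairs passed (background 0.181%; 7 unadjusted, none with the quasi-likelihood test or DESeq2), with up to 3 when the NR GR-KO female was left out (background 0.624%).

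The partners of these receptors were then followed in astrocytes, as 39 genes in 4 lists: receptor chaperones, steroid metabolism and transport, coregulators and the other receptors of the NR3 family. Of them 30 had enough counts. The 9 that did not were Abcb1a, Akr1c14, Cyp11a1, Cyp11b1, Cyp21a1, Esr1, Esr2, Hsd11b2 and Serpina6, which include the steroid-making P450 enzymes and Hsd11b2, the enzyme that inactivates corticosterone. GR-KO against GR-Con changed 2 of the 30 in NR (1 higher, 1 lower; background in astrocytes 7.11%), 1 in DR (higher; background 0.736%) and 4 over all libraries (2 higher, 2 lower; background 4.8%). The median log2 fold change of the 30 over all libraries was -0.0004, against -0.0003 for all genes tested.

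Pgr, the progesterone receptor gene and a close relative of Nr3c1, was at 10.4 and 11.5 CPM in NR GR-Con and at 23.4 and 23.8 CPM in NR GR-KO. In DR it was at 8.17 and 7.29 CPM in GR-Con and at 22.5 and 22.4 CPM in GR-KO. It was the one list gene that passed the test in both conditions, and every GR-KO library was above every GR-Con library. The rise was 1.28 ± 0.15 over all libraries, 2.43-fold (edgeR adjusted p = 5.87e-14), 1.05 ± 0.18 in NR (4.85e-07) and 1.55 ± 0.26 in DR (2.52e-06). The DR call was lost with the quasi-likelihood test (0.123) and without either DR GR-KO library (0.249 and 0.225).

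Fkbp5, a co-chaperone that holds GR in a low-affinity state and is a well-known target of GR, was at 129 and 47.6 CPM in NR GR-Con and at 21.9 and 4.92 CPM in NR GR-KO. In DR it was at 21.5 and 72.8 CPM in GR-Con and at 9.88 and 15.4 CPM in GR-KO. Both GR-KO libraries were below both controls within each condition, and the controls themselves varied widely. It fell by 2.79 ± 0.62 on the log2 scale in NR (edgeR adjusted p = 0.000287) and by 2.32 ± 0.53 over all libraries (0.000568). The NR call was lost with DESeq2 (0.141). In DR the value was -1.85 ± 0.56 (0.0999), which passed without either DR GR-Con library (-2.44 without the male and -0.73 without the female).

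The orphan receptor genes of the list moved by less. Esrrg was at 76.6 and 91.6 CPM in NR GR-Con, 110 and 113 in NR GR-KO, 63.5 and 52.3 in DR GR-Con and 74.9 and 81.5 in DR GR-KO, a rise of 0.40 ± 0.12 with GR-KO over all libraries (edgeR adjusted p = 0.0344). Esrrb, at 1.28 to 5.89 CPM, fell by 0.84 ± 0.25 on the log2 scale (0.0239). Leaving out any of 5 of the 8 libraries took the 4 calls over all libraries down to 2.

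**Figure D5:**
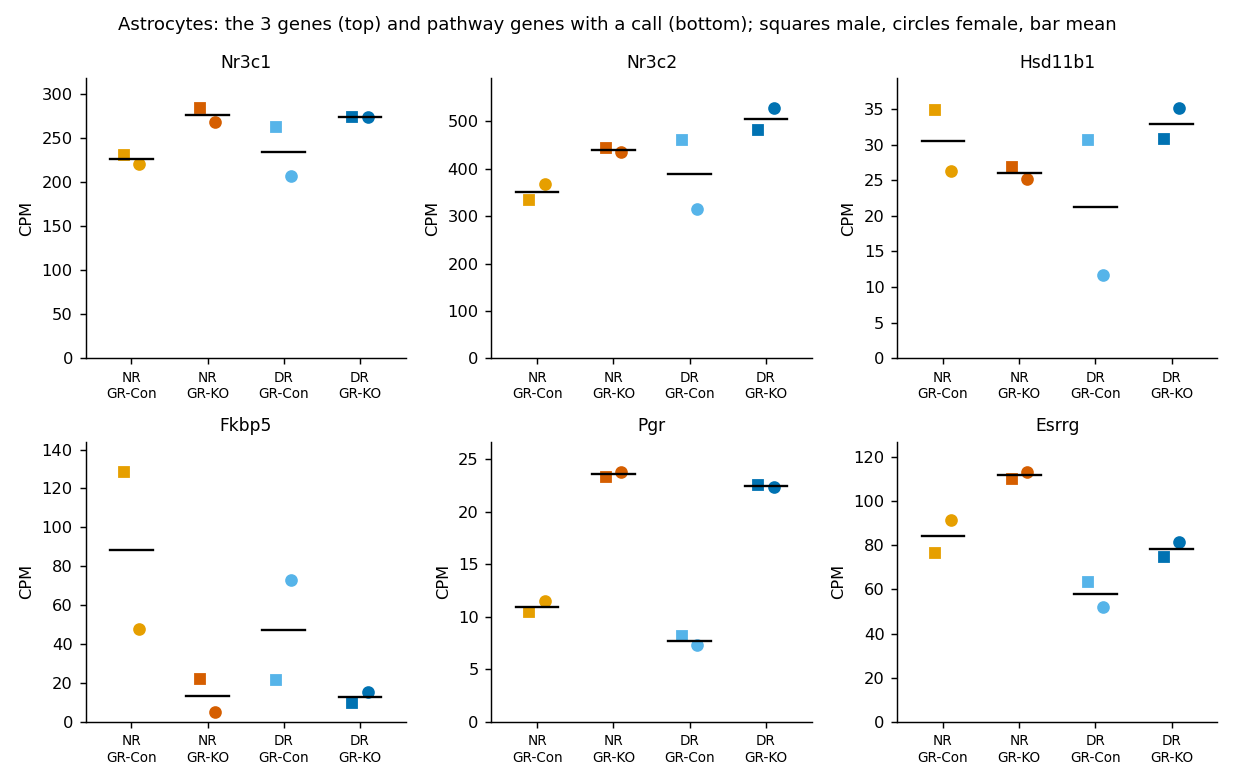
Astrocyte levels, in CPM on linear axes from 0, of the 3 members (top row) and of Fkbp5, Pgr and Esrrg (bottom row), with 1 point per library, squares for males, circles for females and a bar for the mean of 2. Nr3c1 runs from 207 to 284 CPM, Hsd11b1 is lowest in the DR GR-Con female, and Pgr is above 22 CPM in each GR-KO library and below 12 CPM in each GR-Con library.

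The same 30 genes were compared between DR and NR in astrocytes. Within GR-Con none of the 30 genes passed (background 0.147%; 3 unadjusted, none with the quasi-likelihood test or DESeq2). Within GR-KO 1 passed (background 2.85%; 7 unadjusted), and over all libraries 2 did (background 0.917%). These were Esrrg, which was lower in DR by 0.44 ± 0.13 within GR-KO (edgeR adjusted p = 0.0398) and by 0.49 ± 0.12 over all libraries (0.0145), and Hsp90aa1, a chaperone that folds the ligand-binding domain of GR, which fell by 0.55 ± 0.14 on the log2 scale (0.0180). The call of Esrrg within GR-KO was lost with DESeq2 (0.0670), without a filter on low counts (0.0523) and without either DR GR-KO library (0.642 and 0.263). The quasi-likelihood test called neither of the 2 over all libraries. For the interaction none of the 30 passed (background 0.386%; none unadjusted, none with the other tests).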

How the data were processed

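Per the labels, nuclei of 8 animals were made into libraries with a 10x 3′ kit. By the methods of the study, the authors aligned reads with Cell Ranger 8.0.1 to mm10, with the viral eGFP added to the annotation, removed nuclei of extreme gene counts and doublets called by DoubletFinder, and clustered in Seurat 5.3.0. The deposited matrix holds whole UMI counts per feature and nucleus without normalization, and the cell type names that the authors deposited were kept. No nuclei were removed here, those with shared barcode sequences included.

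Counts were summed per library and cell type, so that the animal was the replicate. Types with at least 10 nuclei in every library of a fit were tested with edgeR 4.0.16 (R 4.3.3): the two-sided likelihood ratio test of glmLRT, as in the study, after filterByExpr and TMM, which were chosen here, with Benjamini-Hochberg adjustment over all genes of a type and calls at an adjusted p under 0.05. SE is the log2 fold change divided by the root of the likelihood ratio statistic. On counts simulated for the NR genotype comparison in astrocytes, the likelihood ratio test recovered most changed genes, but the share of false calls among its calls was above the threshold set, so calls near the threshold are less secure than their adjusted p. The quasi-likelihood F-test and DESeq2 1.42.0 were alternatives, with RLE size factors, no filter, a sex term and each library left out. CPM differences between neighbouring types and the receptor ratio (0.5 added to each count) were tested by exact sign-flip permutation within libraries.

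Named were the 3 members, the list genes called in astrocytes and, per member, the 5 features with the highest Pearson r of log2(CPM + 1) over the 20 types. Genes outside these rules (Tshz2, Rorb and the marker lists) were taken up after the data were seen. The members, lists and tests were chosen with earlier results of these data known. Genes were placed with GENCODE vM21. With n = 2 per group, p-values rest on a spread shared across genes.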

Additional observations from a re-analysis of the deposited data

How the results depend on the processing

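For the 11 member calls and the astrocyte genotype values of Nr3c1 and Nr3c2, 166 of 184 values under another setting kept their direction and their side of the threshold, 14 lost the call, 4 gained it and 0 reversed. Pairs outside these also gained calls, which the counts below include. Counts of member calls moved by more than 1.5 times as follows. With the quasi-likelihood test they were 0 for genotype in NR and 2 for rearing in GR-Con. With DESeq2 they were 0 for genotype in NR and 1 for genotype over all libraries. With sex as a term they were 3, 2 and 1 for genotype in NR, in DR and over all libraries. They were then 5 and 7 for rearing in GR-KO and over all libraries, and 2 for the interaction. The share of all pairs called also moves with the setting, as given above for sex as a term in the rearing fits. Without that share beside them, the counts of this paragraph are not read as a gain or loss of the members. Nuclei without a Tshz2 UMI were a setting chosen after the data were seen and run in L2/3, L4, L5IT and L6IT alone. With the main calls kept for all other types, the counts were then 2 for genotype in NR and 1 for genotype over all libraries. With each library left out they ran from 0 to 4, 0 to 7 and 0 to 1 for genotype in NR, in DR and over all libraries, from 3 to 7, 1 to 10 and 3 to 7 for rearing in GR-Con, in GR-KO and over all libraries, and from 0 to 3 for the interaction.

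For the astrocyte lists, DESeq2 called 1 gene for genotype in NR and 0 for rearing in GR-KO, and sex as a term gave 6, 2 and 4 for genotype in NR, genotype in DR and rearing in GR-KO. The quasi-likelihood test gave 0 for genotype in DR, 2 for genotype and 0 for rearing over all libraries, and no filter gave 0 for rearing in GR-KO. The share of all genes called under each setting is not given beside these counts, so they are not read as a gain or loss of the lists. With each library left out, also a setting added after the data were seen, the counts ran from 2 to 3 for genotype in NR, 0 to 7 in DR and 2 to 5 over all libraries, and from 0 to 2, 0 to 6 and 0 to 2 for rearing in GR-Con, in GR-KO and over all libraries. The receptor ratio differed in 9 of 15 pairs among libraries with at least 10 nuclei of both classes and in 10 with the mean of the cell types. It differed in 12 with 5 in place of 0.5 added and in 12 to 14 with each library left out. With the mean of the cell types, excitatory neurons were below the oligodendrocyte lineage, a pair that did not pass with the sums. The causes of these shifts were not tested, except that fewer libraries raise the smallest p of the exact test.

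No paired analysis was possible because the deposited library names carry no replicate number. Sex, which is balanced over the groups, is the only label that links libraries across them, and its fit is the one given as the sex term. Depth limits Hsd11b1 in the vascular types, which rest on 8 to 24 UMIs each, and in L6IT, where 6 and 3 UMIs stand behind the NR GR-Con values.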
